A study of Mus musculus with 36 samples.

Results

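The Ldb3 locus was examined as 58 accessible regions of mouse chromosome 14, build mm9, out of 1393120 regions in the count table. The regions are all those that overlap chr14:35325000-35410000, a window of 85 kb around the Ldb3 span of about chr14:35339500-35401900. The window was chosen by its measured accessibility in reprogramming cells relative to fibroblasts, so every value set against fibroblasts below, counts of called regions included, is a description and supports nothing. Comparisons among the reprogramming days were not the basis of that choice and were tested. The window and its segments were, however, set with earlier results of these data known. A low-count filter kept 46 of the 58 regions and 144810 regions in all.

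Ldb3 encodes a PDZ and LIM domain protein, also called Cypher or ZASP, that sits at the Z-disc of heart and skeletal muscle. Z-discs are the borders between neighbouring sarcomeres, where actin filaments are anchored by alpha-actinin, and the PDZ domain of the Ldb3 protein binds alpha-actinin. In mice, loss of the gene causes severe muscle disease, and variants of the human gene have been linked to cardiomyopathy and myofibrillar myopathy. In ATAC-seq, a transposase inserts adapters into open DNA, so that read counts follow the accessibility of a region and not the amount of Ldb3 transcript or protein.

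All cells came from neonatal hearts of Cd-1 mice that carry an alpha-MHC-GFP reporter, in which a cardiac myosin heavy chain promoter drives green fluorescent protein. GMT cells were cardiac fibroblasts infected with retroviruses for Gata4, Mef2c and Tbx5, transcription factors of heart development, treated with sb431542 and xav939, which inhibit Tgf-beta and Wnt signalling, and sorted as GFP-positive on day 2, 3, 7, 14 or 21. Fibroblasts were infected with a dsRed retrovirus, received neither inhibitor and were sorted as dsRed-positive on day 7. The starting cells of both had been sorted as Thy1-positive and GFP-negative from cultured explants and were largely, not purely, fibroblasts. There were 3 biological replicates in each of the 6 groups, which gives 18 libraries. A difference from fibroblasts therefore combines the factors, the inhibitors, the sort and, except at day 7, the time in culture, and these cannot be told apart.

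Each library held between 2.29 and 23.2 M counts in the table, of which 452 to 12367 fell in the Ldb3 window. The GFP-sorted libraries of day 2 replicate 1 and day 3 replicate 1 stood apart from all others on the second principal component, and day 14 replicate 3 did so on the third. In this order they held 2.29, 2.95 and 4.82 M counts, the fewest of the GMT libraries, with 886, 947 and 1325 in the window. Whether their depth relates to their position or their low values was not tested. This set was chosen after the data were seen. Among fibroblasts, replicate 3 lay at -372 on the first principal component, against -256 and -289 for replicates 1 and 2. Its scaling factor was 1.19 against 0.632 and 0.638, and it held 2.34 M counts. It was left out only where single libraries were left out in turn. Where leaving out the GMT libraries that stood apart turned a direction or moved a result by over 1.5 times, the value or the group levels without them are given. The labelled cell types could not be checked against markers, since no gene annotation of mm9 was used here.

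RefSeq places Ldb3 on the minus strand, so the upper end of its span is the 5′ end, where transcription starts, and the lower end is the 3′ end. On that annotation Opn4, the gene of the photopigment melanopsin, is the next gene above, and 9230112D13Rik is the next below. The promoter is shown because the accessible region over this end of the gene is among those described below. It runs from 250 bases before to 50 bases after the outer of a pair of RefSeq starts that lie 74 bases apart, on build GRCm38.p6, minus strand, chr14:34588632-34588931. Capitals mark the matches to the AP-1 motif TGANTCA and to the CArG box, the element bound by serum response factor.
Ldb3 promoter: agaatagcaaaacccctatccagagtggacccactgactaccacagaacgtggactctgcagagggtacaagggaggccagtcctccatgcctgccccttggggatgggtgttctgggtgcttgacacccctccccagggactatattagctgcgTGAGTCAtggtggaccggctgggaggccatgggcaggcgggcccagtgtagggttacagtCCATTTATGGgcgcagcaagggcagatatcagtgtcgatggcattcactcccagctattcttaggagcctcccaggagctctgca
The AP-1 match begins 95 bases before the start, and 7.81% of 32851 promoters of this length hold such a match on either strand. The CArG match begins 35 bases before the start, and 1.63% of promoters hold one. That motif was added to the search after the sequence had been read. The other motifs searched, on both strands, were not found in this window of 300 bases. Of the GATA factor motifs, AGATAA occurs in 11.2% of promoters. The other, TGATAA, occurs in 9.05% of them. The T-box motif AGGTGT occurs in 13.7% and the MEF2 motif in 3.19%. The E-box CANNTG is in 72.3% of promoters. The TEAD motif CATTCC is in 14.7%. A TATA box, TATAAA, is in 13.6% of promoters. A match is a description of the letters only. This sequence belongs to another build than the count table and was not placed on its regions.

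The Ldb3 window was more accessible in GMT cells than in fibroblasts on every day sampled, beginning with day 2. Summed over the 58 regions, accessibility, as CPM (counts scaled to a common effective library size), was 283.7, 635.8 and 597.9 on day 2. They were 249.8, 593.6 and 492.4 on day 3, and 404.3, 552.8 and 398.9 on day 7. On day 14 they were 467.0, 385.3 and 314.8, and on day 21 they were 371.6, 553.9 and 593.5, against 186.2, 179.3 and 162.9 in fibroblasts. No GMT library overlapped the fibroblasts, and the GMT libraries varied far more among themselves than the fibroblasts did. The means were 505.8 ± 193 on day 2, 445 ± 177 on day 3, 452 ± 87.3 on day 7, 389 ± 76.2 on day 14 and 506 ± 118 on day 21, against 176 ± 12.0 CPM in fibroblasts (SD, n = 3 each). These are 2.87, 2.53, 2.57, 2.21 and 2.88 times the fibroblast mean. In these bulk libraries, more cells with an open locus and more accessibility per cell cannot be told apart.

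The early spread came largely from the libraries that stood apart, which were the lowest of their days. Without them, the mean sum was 617 CPM on day 2, 543 CPM on day 3 and 426 CPM on day 14. The 85 kb on each side of the window differed less from fibroblasts. The stretch below averaged 152.7 to 176.7 CPM over the GMT days against 137.7 CPM in fibroblasts, and the stretch above 115.1 to 152.9 CPM against 111.6 CPM.

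**Figure D1:**
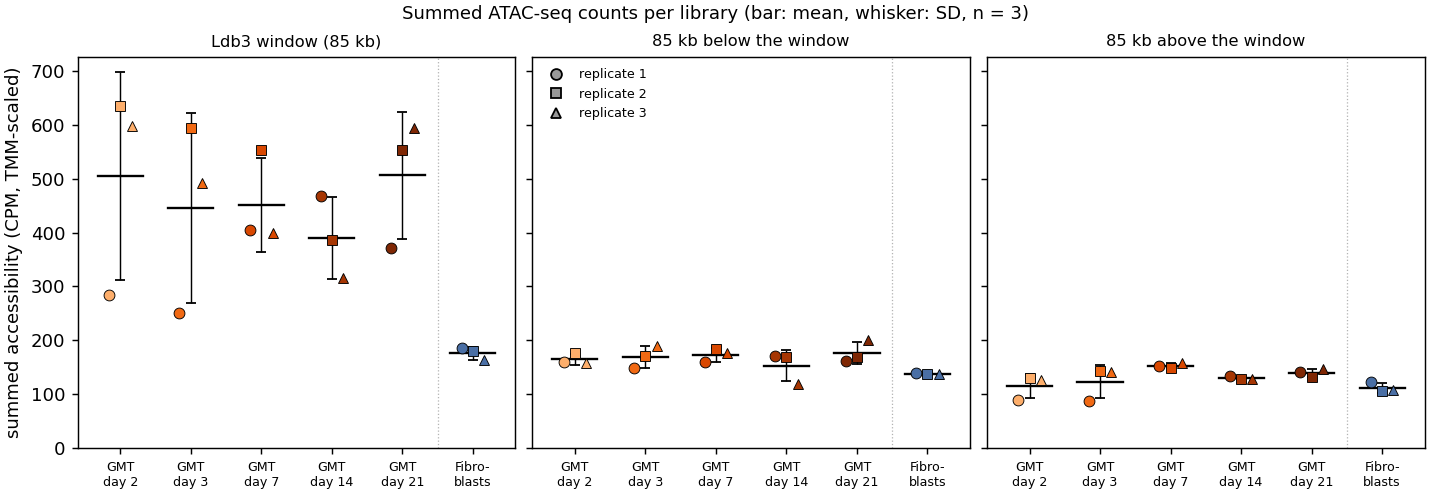
Summed accessibility (CPM, TMM-scaled) of the Ldb3 window and of the 85 kb below and above it, with one point per library, bars for means and whiskers for SD (n = 3). GMT libraries of the window lie between 249.8 and 593.6 CPM on day 3 and fibroblasts between 162.9 and 186.2 CPM, while the neighbouring stretches sit closer to fibroblasts.

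The sum itself did not differ detectably between GMT days. Day 21 was 0.06 above day 2 on the log2 scale (exact permutation test, two-sided, p = 1). Of the consecutive steps, day 3 over day 2 was -0.19 (exact p = 0.5), day 7 over day 3 was 0.10 (exact p = 0.9), day 14 over day 7 was -0.22 (exact p = 0.4) and day 21 over day 14 was 0.37 (exact p = 0.3). With 3 libraries a side, this test cannot give a p below 0.1. Days 14 and 21 pooled over days 2 and 3 pooled gave -0.03 (exact permutation test, n = 6 each, p = 0.909). All 6 comparisons had an adjusted p of 1 (Benjamini-Hochberg). The sign of day 21 over day 2 turned without the libraries that stood apart, to -0.31, and without day 2 replicate 1 or day 21 replicate 3 alone. Without the libraries that stood apart, day 7 over day 3 turned to -0.26. The mean sums were then 617, 543, 452, 426 and 506 CPM in day order, with days 2 and 3 the highest. The small pooled difference thus depended on these libraries.

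For description, 39 of the 46 tested regions lay past the threshold on the higher side of fibroblasts on day 2, 35 on day 3, 31 on day 7, 24 on day 14 and 35 on day 21 (edgeR quasi-likelihood test, adjusted p under 0.05). Over all 144810 regions tested, 12.2%, 13.2%, 15.5%, 12.8% and 13.3% were called higher on these days. No region of the window was called lower on any day, where 8.09%, 8.84%, 12%, 9.7% and 10.1% of all regions were. Nothing is read from these shares, because the window was selected on this contrast and a region that passes the filter through GMT counts alone tends to differ. The median log2 fold change of the 46 regions was 2.21, 1.87, 1.76, 1.58 and 2.01 in day order, against -0.0027, -0.0071, 0.0059, 0.068 and 0.047 over all regions. Without fibroblast replicate 1, 18 regions were called on day 7 and 15 on day 14.

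By position, the span was cut into 3 parts of equal length, and a region was assigned by its midpoint. The summed CPM below the gene was 8.51 times the fibroblast mean on day 2, 7.76 on day 3, 4.03 on day 7, 3.36 on day 14 and 3.24 on day 21. In the lower part of the span the ratios were 3.84, 2.92, 2.61, 2.48 and 3.37, and in the middle part 1.63, 1.43, 1.61, 1.23 and 1.84. In the upper part they were 3.28, 3.14, 3.93, 3.63 and 4.64, and above the gene 2.49, 2.33, 2.91, 2.36 and 2.76.

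**Figure D2:**
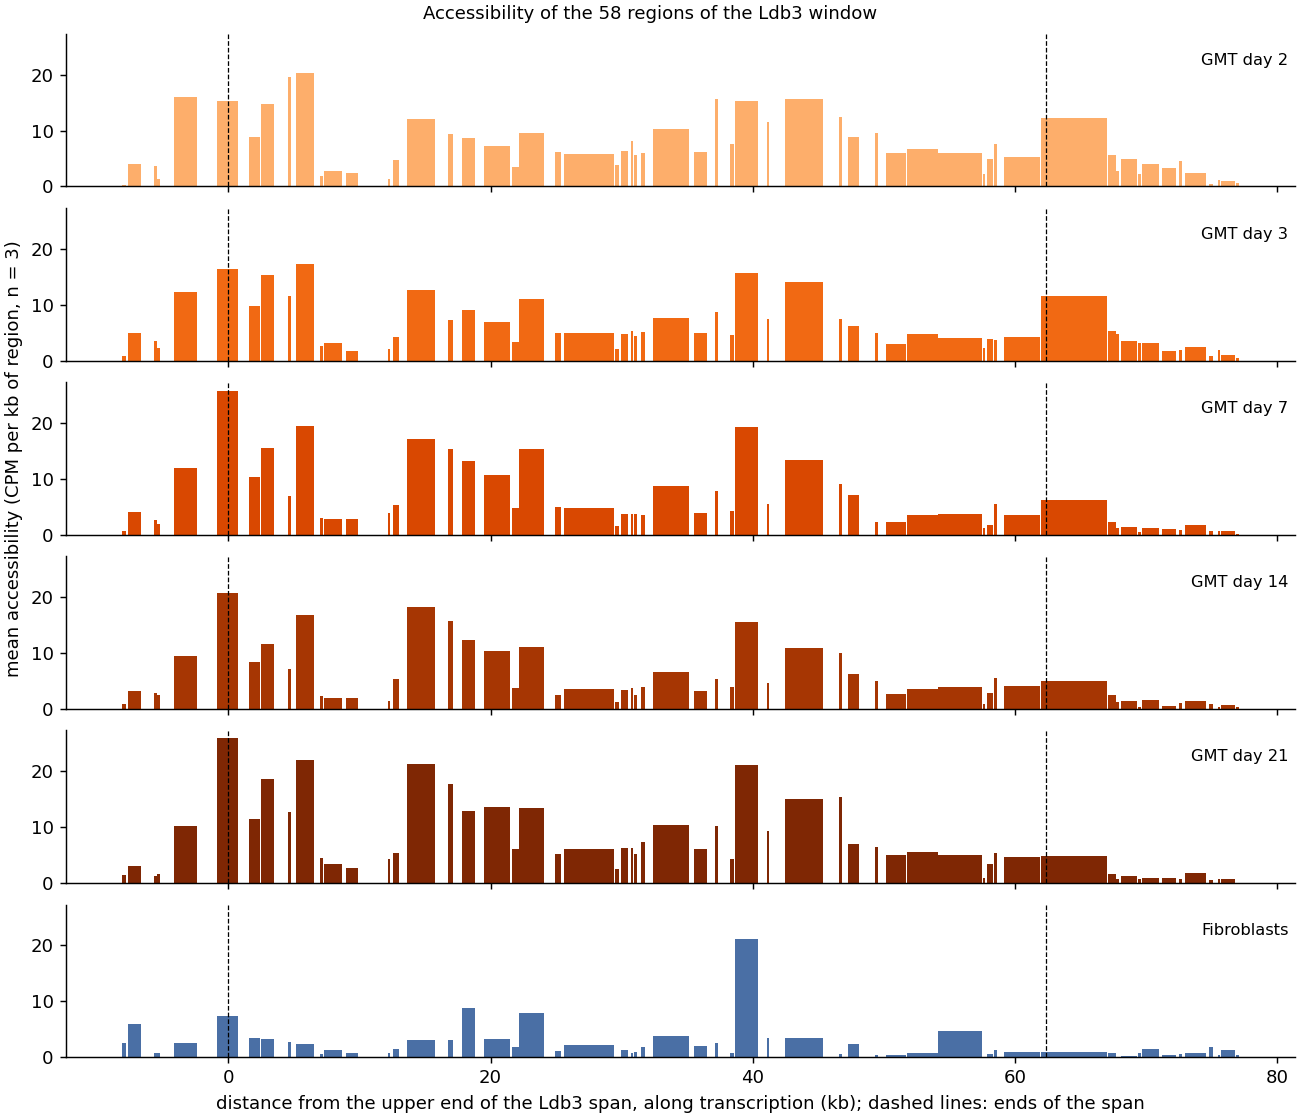
Mean accessibility of each of the 58 regions (CPM per kb of region, n = 3) by group, along the direction of transcription, with the distance in kb from the upper end of the Ldb3 span on the horizontal axis and dashed lines at both ends. GMT cells have many accessible regions across the gene, while 1 region in the middle part is the tallest in fibroblasts. Before division by width, the fibroblast mean of that region is 36.2 CPM.

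At the start of the gene, the region chr14:35401147-35402779 spans the upper end of the Ldb3 span. Per kb it was the most accessible of the window, at a mean of 18.6 CPM per kb over the 18 libraries. It averaged 25.0 ± 10.4 CPM on day 2, 26.6 ± 14.9 on day 3, 41.9 ± 3.08 on day 7, 33.9 ± 6.76 on day 14 and 42.4 ± 5.02 on day 21, against 12.0 ± 0.483 CPM in fibroblasts (SD, n = 3 each). Day 2 replicate 1 and day 3 replicate 1 had 13.1 and 9.49 CPM, close to the fibroblast level, where the other GMT libraries had 29.5 to 47.8 CPM. The 3 day 21 libraries had 37.9, 41.4 and 47.8 CPM, and the 3 day 2 libraries 13.1, 31.9 and 30.2 CPM. The log2 fold change of day 21 over day 2, 0.74 (SE 0.33), did not pass the threshold over all regions (edgeR, adjusted p = 0.311). It was 0.44 without day 2 replicate 1 and 0.45 without all libraries that stood apart (adjusted p = 0.243). In fibroblasts, 3 regions of the window had a higher mean CPM than this one.

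Inside the upper part of the span, chr14:35386142-35388249 had 25.6 ± 12.7 CPM on day 2, 26.5 ± 10.8 on day 3, 35.9 ± 9.79 on day 7, 38.3 ± 9.72 on day 14 and 44.7 ± 11.1 on day 21, against 6.24 ± 1.10 CPM in fibroblasts. Over the 15 GMT libraries it was 5.48 times the fibroblast mean. Its groups of day 21 and day 2 overlapped, and the log2 fold change between them was 0.78 (SE 0.33, edgeR adjusted p = 0.273). It was 0.43 without day 2 replicate 1 and 0.44 without all libraries that stood apart (adjusted p = 0.291). The region chr14:35380438-35382422 had 24.1, 31.7 and 25.1 CPM on day 21, against 8.64, 20.7 and 13.4 CPM on day 2. The log2 fold change of day 21 over day 2 there was 0.86 (SE 0.32, edgeR adjusted p = 0.178).

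With days pooled, chr14:35380438-35382422 was the only tested region of the window called higher later. It averaged 23.8 ± 5.28 CPM on days 14 and 21 against 14.0 ± 5.81 CPM on days 2 and 3 (SD, n = 6 each), a log2 fold change of 0.70 (SE 0.23, edgeR adjusted p = 0.0479). The pooled groups overlapped. This call was close to the threshold: without the libraries that stood apart the log2 fold change was 0.37 (adjusted p = 0.176). Leaving out single libraries, the call was kept only without day 2 replicate 2, day 3 replicate 2 or day 3 replicate 3, and was lost without any other library, fibroblast replicates included (adjusted p from 0.0194 to 0.178).

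In the middle part of the span, chr14:35361498-35363220 had the highest fibroblast level of the window. GMT cells averaged 26.4 ± 16.8 CPM on day 2, 26.8 ± 13.7 on day 3, 33.2 ± 1.75 on day 7, 26.6 ± 5.84 on day 14 and 36.2 ± 6.69 on day 21, against 36.2 ± 0.918 CPM in fibroblasts, whose single libraries had 35.2, 37.0 and 36.4 CPM. The ratio of the GMT mean to the fibroblast mean was 0.824, and 0.942 without the libraries that stood apart. The lowest values were again those of day 2 replicate 1, at 7.04 CPM, and day 3 replicate 1, at 11.3 CPM. The region chr14:35408569-35409532, above the gene, also had a ratio under 1, with 3.92, 4.74, 3.83, 3.08 and 2.91 CPM over the GMT days against 5.70 CPM in fibroblasts, a ratio of 0.649.

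In the lower part of the span, chr14:35356527-35359462 had the highest mean level of the window. It averaged 46.1 ± 17.4 CPM on day 2, 41.1 ± 6.45 on day 3, 39.2 ± 3.51 on day 7, 31.9 ± 10.7 on day 14 and 44.1 ± 14.9 on day 21, against 9.61 ± 1.41 CPM in fibroblasts, and 4.21 times the fibroblast mean over all GMT libraries. The GMT days followed no order, and day 21 and day 2 overlapped. A small region beside it, chr14:35355113-35355338, had a single count in the 3 fibroblast libraries together and averaged 1.68 to 3.46 CPM over the GMT days.

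Accessibility below the 3′ end of the gene was highest on days 2 and 3 and lower afterwards. Day 21 was lower than day 2 at 5 of the 46 tested regions and higher at 0 of them, where 0.871% of all regions were called lower and 0.572% higher. All 5 lie next to each other in the 7 tested regions below the gene, and neighbouring regions are not independent of each other. In each of the 5, all 3 libraries of day 21 lay below all 3 of day 2, as they did at 9.25% of all regions tested. Some 11 of the 46 regions, and 19053 of all regions, had an unadjusted p under 0.05.

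The widest of the 5, chr14:35334859-35339931, is 5072 bases long and reaches into the lower end of the Ldb3 span. It had 52.8, 58.6 and 74.8 CPM on day 2, 26.9, 86.7 and 62.5 on day 3 and 26.0, 44.3 and 23.5 on day 7. It had 21.7, 34.3 and 19.5 CPM on day 14 and 19.1, 20.2 and 34.8 on day 21, against 5.65, 3.24 and 4.32 CPM in fibroblasts. Day 3 had the widest spread, and all GMT libraries stayed above the fibroblasts. The mean was 24.7 ± 8.79 CPM on day 21 against 62.1 ± 11.4 CPM on day 2, a log2 fold change of -1.32 (SE 0.34, edgeR adjusted p = 0.0267).

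The other called regions were lower in level and had larger fitted changes. The region chr14:35332574-35333847 had 1.78, 1.54 and 1.15 CPM on day 21, hence 1.49 ± 0.318, against 4.16, 8.01 and 6.93 CPM on day 2, hence 6.37 ± 1.98 (log2 fold change -2.21, SE 0.37, edgeR adjusted p = 0.000224). Fibroblasts had 0.456, 0.231 and 0 CPM there, from 6 counts in all. The region chr14:35330952-35332220 averaged 1.11 ± 0.757 CPM on day 21 against 5.11 ± 2.34 CPM on day 2 (log2 fold change -2.35, SE 0.41, edgeR adjusted p = 0.000352). Its fibroblast mean was 1.67 ± 0.246 CPM, within the range of the single libraries of days 7 to 21.

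The region chr14:35329614-35330676 averaged 0.944 ± 0.116 CPM on day 21 against 3.45 ± 0.773 CPM on day 2, with 0.380 ± 0.159 CPM in fibroblasts. Its log2 fold change was -1.94 (SE 0.41, edgeR adjusted p = 0.00475). The region chr14:35334218-35334808 averaged 0.906 ± 0.434 CPM on day 21 against 3.28 ± 1.45 CPM on day 2, with 0.353 ± 0.347 CPM in fibroblasts. Its log2 fold change was -1.80 (SE 0.42, edgeR adjusted p = 0.0117). In fibroblasts these regions held 8 and 7 counts over the 3 libraries together, so their fibroblast levels carry a large counting error.

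Leaving out single libraries, chr14:35330952-35332220 and chr14:35332574-35333847 were called lower at day 21 in every case. The call at chr14:35329614-35330676 was lost without day 2 replicate 2 or day 21 replicate 3 (highest adjusted p = 0.0650). That at chr14:35334218-35334808 was lost without day 2 replicate 2 or 3 or day 21 replicate 1 or 2 (highest adjusted p = 0.133). That at chr14:35334859-35339931 was lost without fibroblast replicate 2 or 3, day 2 replicate 2 or 3, day 14 replicate 2 or day 21 replicate 1 or 2 (highest adjusted p = 0.314), with log2 fold changes between -1.66 and -1.12 throughout. Accordingly, 2 to 5 regions were called lower when any 1 library was left out, the fewest without day 2 replicate 2. With library totals alone in place of TMM, the call at chr14:35334859-35339931 was also lost (log2 fold change -1.35, edgeR adjusted p = 0.0912).

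Days 14 and 21 pooled were lower than days 2 and 3 pooled at the same 5 regions, where 3.66% of all regions were called lower and 2.5% higher. The log2 fold changes were -1.83, -1.71, -1.80, -1.49 and -1.28 in order of position from the low end of the chromosome, with edgeR adjusted p-values of 7.97e-05, 3.35e-05, 3.92e-06, 0.000481 and 0.000287. Each of these 5 calls held when any single library was left out. With no filter on low counts, the pooled call at chr14:35334859-35339931 was lost (log2 fold change -1.28, edgeR adjusted p = 0.0875). This comparison and that of day 21 with day 2 share 6 libraries. Without the libraries that stood apart, further regions were called lower with days pooled, also near the 5′ end. These were chr14:35397143-35397351 in the upper part (log2 fold change -1.25, edgeR adjusted p = 0.000931) and chr14:35404316-35406026 above the gene (-0.85, adjusted p = 4.40e-05). Below the gene, chr14:35333990-35334204 was called too (-2.23, edgeR adjusted p = 0.0105). The share of all regions called lower was not counted in this smaller fit, so nothing is read from the number of further calls.

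**Figure D3:**
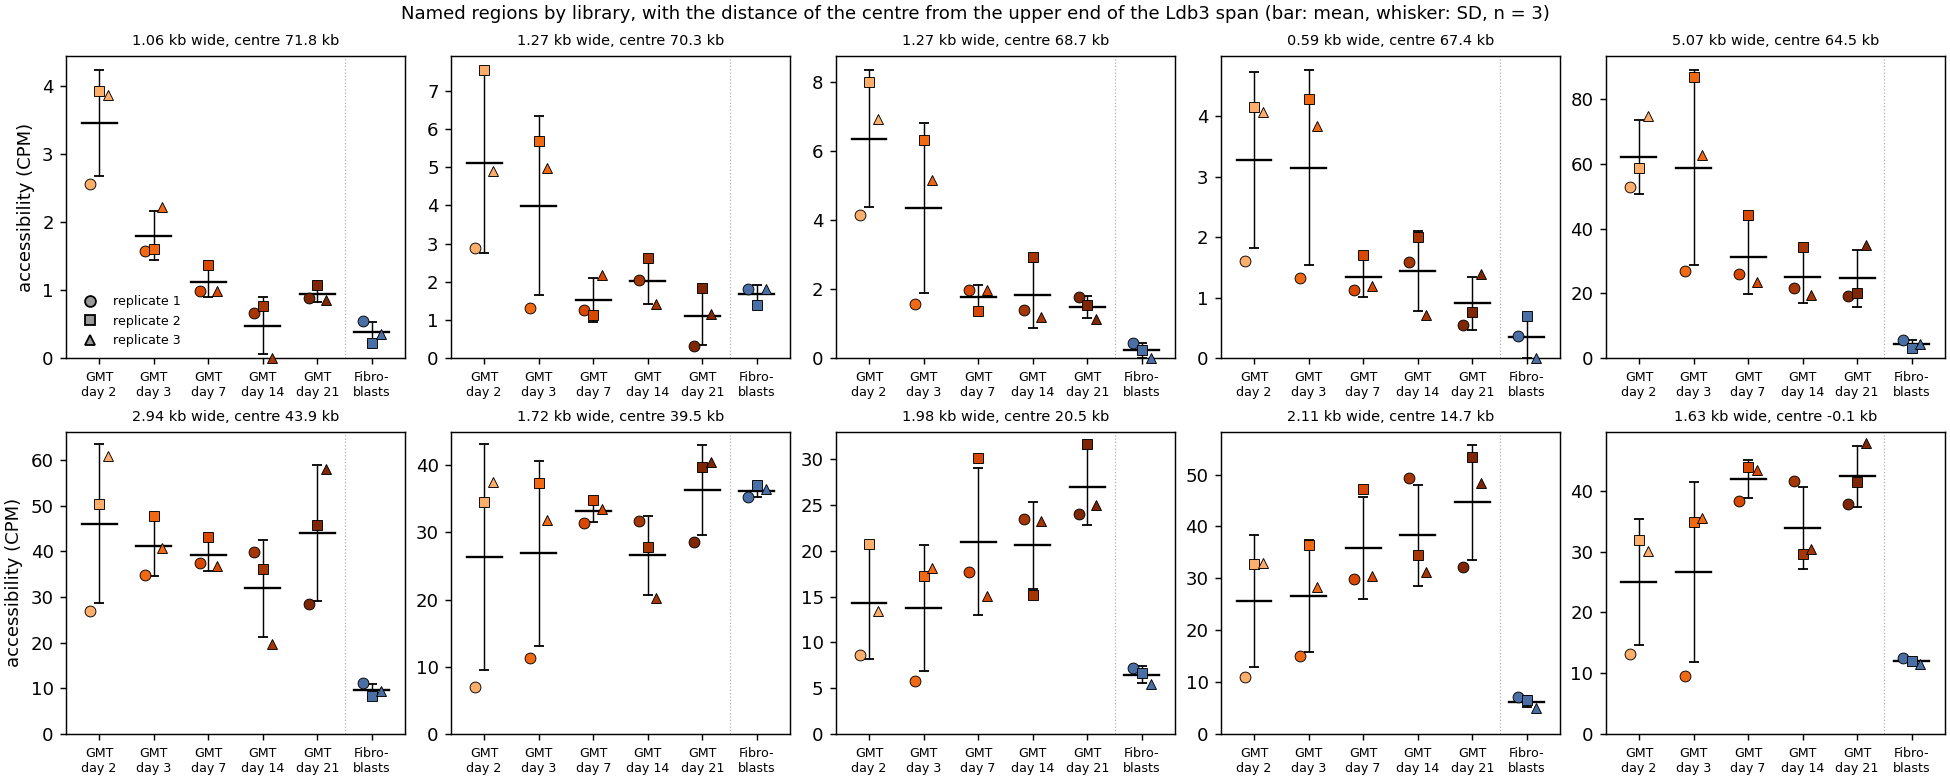
Accessibility (CPM) of 10 named regions in each library, with bars for means and whiskers for SD (n = 3). The upper row holds the 5 regions below the gene, such as the widest at 24.7 CPM on day 21 against 62.1 CPM on day 2, and the lower row holds the regions within the gene and at its 5′ end.

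No tested region of the window passed the threshold between consecutive days. The counts were 0 of 46 for day 3 over day 2, day 7 over day 3, day 14 over day 7 and day 21 over day 14 by edgeR, where 0%, 0.00829%, 0% and 0% of all regions were called. DESeq2 and limma voom also called 0 in each step. At an unadjusted p under 0.05 there were 4, 7, 2 and 8 regions of the window. Over all regions tested, the counts were 5247, 9196, 10373 and 4757 in the same order. Whether the window differed from all regions in these counts was not tested. Without the libraries that stood apart, chr14:35330952-35332220 and chr14:35332574-35333847 were called lower at day 7 than at day 3, and without day 3 replicate 1 alone 1 region was. The share of all regions called was not counted in these smaller fits, and the 0.00829% belongs to the fit of all libraries.

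**Figure D4:**
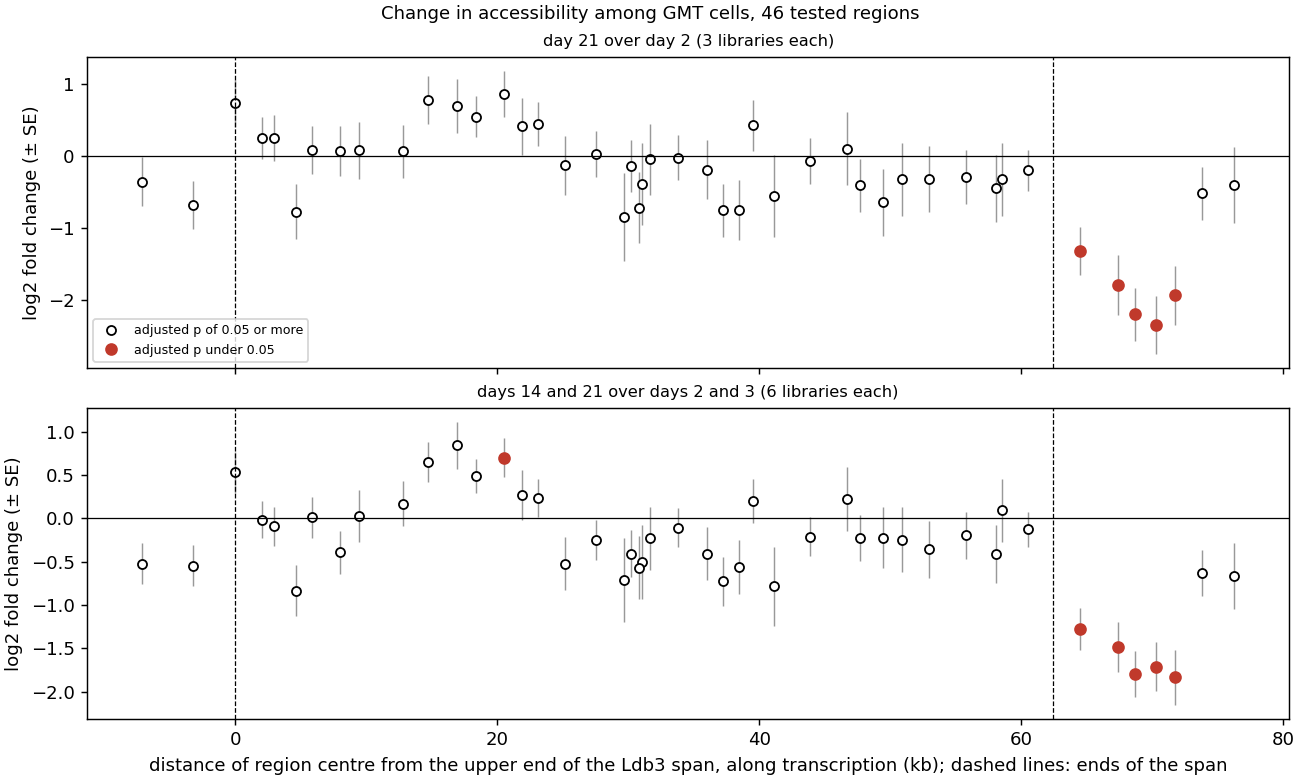
Log2 fold change (± SE) of each of the 46 tested regions for day 21 over day 2 (top) and days 14 and 21 over days 2 and 3 (bottom), by distance in kb of the region's centre from the upper end of the Ldb3 span. With all libraries, the 5 regions called lower, filled, lie together beyond the 3′ end, between -2.35 and -1.32 in the top panel. The 1 region called higher in the bottom panel, at 0.70, lies in the upper part.

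Over the whole window, the median log2 fold change of day 21 over day 2 was -0.24 for the 46 regions, 16 of them positive and 30 negative, against 0.02 over all regions tested. By segment, the 7 regions below the gene were all negative, with a median of -1.80 and a range of -2.35 to -0.40. The median was -0.32 in the lower part of the span, -0.13 in the middle part and 0.25 in the upper part, where 10 of 11 regions were positive. The 3 regions above the gene had a median of -0.36. The sign in the upper part rested on the libraries that stood apart: without them its median was -0.08, with 4 of 11 regions positive, while that below the gene was -2.01 with 0 of 7 positive. Without them, the lower part had -0.58, the middle part -0.33 and the segment above the gene -0.45, and the 46 regions together had -0.39, with 9 positive. With days pooled, the upper part had a median of 0.02 with all libraries and -0.17 without those that stood apart.

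Within the locus, later days held a smaller share of the counts below the gene and a larger share in the upper part of the span. The share of the window's counts that lay below the gene was 18.7 ± 5.36% on day 2, 17.5 ± 1.65% on day 3, 9.12 ± 0.604% on day 7, 8.97 ± 3.00% on day 14 and 6.63 ± 1.33% on day 21, against 5.86 ± 1.28% in fibroblasts (SD, n = 3 each). The share of the upper part of the span was 22.1 ± 3.02%, 24.6 ± 0.833%, 30.4 ± 2.46%, 33.2 ± 5.66% and 32.5 ± 2.88% over the same days, against 19.9 ± 1.71% in fibroblasts. Shares within a library do not depend on how libraries are scaled to each other. They add up to the whole window, so a smaller share in 1 segment means larger shares elsewhere. The fall below the gene and the rise in the upper part are therefore not separate results. In summed CPM, the upper part had 115, 110, 138, 128 and 163 CPM over the GMT days. Without the libraries that stood apart, its sums were 145, 136, 138, 130 and 163 CPM, in no order of days.

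Day 21 was 12.0 percentage points below day 2 in the share below the gene and 10.3 points above it in the upper part, with no overlap between the groups. Both had the smallest p that 3 against 3 libraries allow (exact permutation test, two-sided, p = 0.1, adjusted over 5 segments p = 0.25), so that the design could not pass the threshold. With days pooled, a comparison chosen after the data were seen, the share below the gene was 7.80% on days 14 and 21 against 18.1% on days 2 and 3. The upper part had 32.8% on days 14 and 21 against 23.4% on days 2 and 3. Neither pair of groups overlapped (exact permutation test, n = 6 each, p = 0.00216, the smallest it can give, adjusted p = 0.00541 for both), where the test treats both days of a pool as alike. Without the libraries that stood apart, the differences were -9.21 points below the gene and 7.32 points in the upper part (exact permutation p = 0.0159 for both). Of the other segments, the lower part (p = 0.175), the middle part (p = 0.351) and the segment above the gene (p = 0.0519) did not pass the threshold in this exact test.

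**Figure D5:**
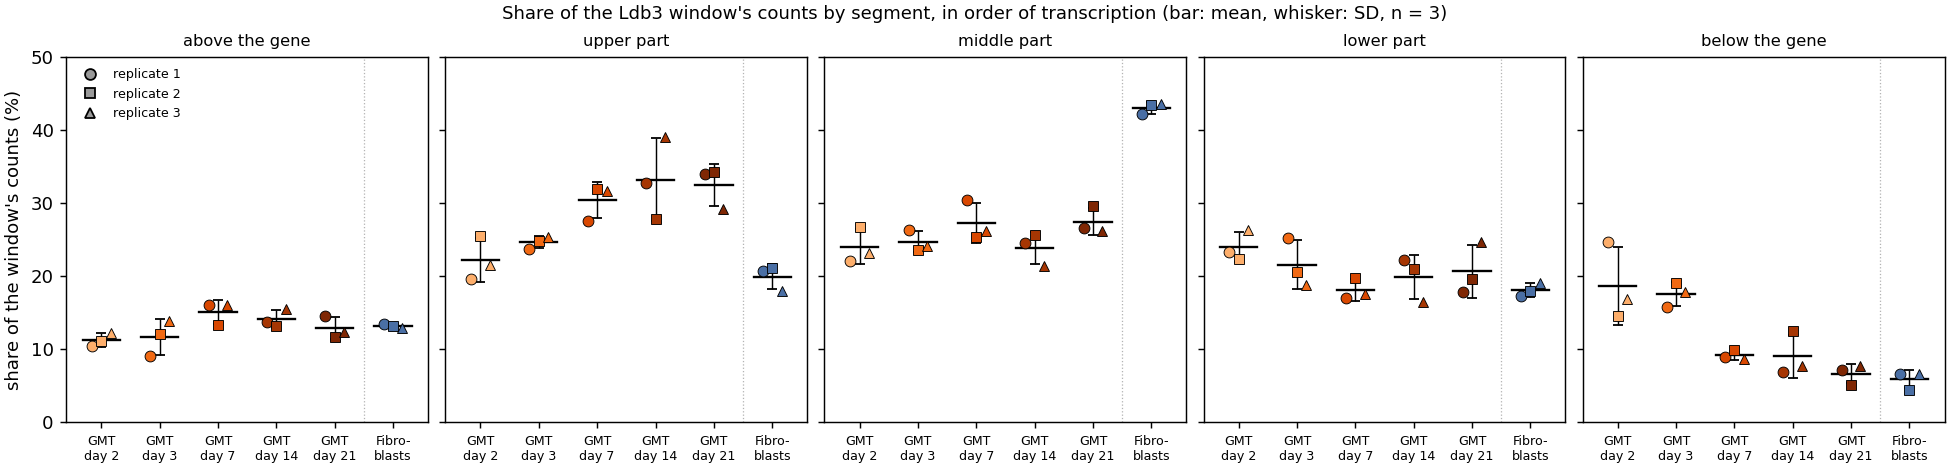
Share (%) of the Ldb3 window's counts in each of 5 segments, in order of transcription from left to right, by library, with bars for means and whiskers for SD (n = 3). The share below the gene is 6.63% on day 21 against 18.7% on day 2, the share of the upper part is 32.5% on day 21 against 22.1% on day 2, and fibroblasts have 43.1% in the middle part.

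In the middle part, GMT cells held 24.0, 24.7, 27.3, 23.8 and 27.4% of their counts over the days, against 43.1 ± 0.809% in fibroblasts, where chr14:35361498-35363220 had the highest level among its regions. The day 21 cells lay near the fibroblasts in the share below the gene and farther from them in the shares of the middle and upper parts.

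Below, the last region inside, chr14:35324831-35325031, averaged at most 0.132 CPM in a GMT day against 0.0608 CPM in fibroblasts, and the first outside, chr14:35323892-35324167, 0.147 to 0.695 CPM against 0.331 CPM. Above, the last region inside, chr14:35409681-35410002, averaged 0.0770 to 0.450 CPM over the GMT days against 0.776 CPM in fibroblasts. The first region outside, chr14:35410350-35411877, averaged 4.41 to 7.80 CPM against 2.96 CPM in fibroblasts.

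Across the 18 libraries, the regions elsewhere whose log2 CPM followed the log2 sum of the Ldb3 window most closely are given by position alone. They were taken among 60975 regions more than 100000 bases away with a mean log2 CPM of at least 1. The closest was chr1:137750996-137754246 (Pearson r = 0.971), with 37.4, 29.7, 31.8, 20.0 and 41.0 CPM over the GMT days against 2.21 CPM in fibroblasts. Next were chr12:87492607-87494797 (r = 0.956), chr11:104456788-104458546 (r = 0.950) and chr13:73940727-73942187 (r = 0.947). Over the 15 GMT libraries alone, r was 0.935, 0.908, 0.912 and 0.918 in the same order. The libraries share their depth and scaling between regions, and these values are a description.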

How the data were processed

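ATAC-seq reads per region were deposited by the authors as whole-number counts, not normalized. Per the submitters' processing notes, Bowtie2, Picard, MACS2 and edgeR were used with build mm9. Not given in the sources used here are their versions, the offset applied for transposase cuts and how libraries were combined for peak calling. The table covers chromosomes 1 and 10 to 16 and chromosome 17 up to 79.1 Mb, and 18 of 36 samples have a column. The others were not analysed here.

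Counts were scaled by TMM (edgeR 4.0.16, R 4.3.3), because 1 region on chromosome 1 held 4.52 to 49.4% of the counts of a library. Scaling factors ran from 0.632 to 1.36. Regions were kept by filterByExpr (minimum count 10, minimum total 15), 10.4% of regions with 79.2% of counts. The 18 libraries were fitted together (glmQLFit, robust) with group means (12 residual degrees of freedom, biological coefficient of variation 23.8%). P-values were two-sided and adjusted over all 144810 regions (Benjamini-Hochberg, threshold 0.05). The test was checked on simulated data. Sums and shares use all 58 regions. Alternatives were RLE factors, library totals, no filter, DESeq2 1.42.0, limma voom 3.58.1, a replicate block, only the compared groups, and fewer libraries.

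The members, segments and lists were chosen with earlier results of these data known. Regions are named by a rule: the 5 with the highest mean CPM, those called among GMT days, the 2 largest and 2 smallest ratios to fibroblasts among tested regions with a mean log2 CPM of at least 1, those at the ends of the span and of the window, and the 4 most alike elsewhere. Planned lists of Z-disc genes and cell type markers were not run, because no mm9 annotation was used here. The counts of every replicate pair differed beyond sampling noise (chi-square over its degrees of freedom, 1.36 to 20.7) and were counted separately. The sequencing core of each library is not given, so a core effect was not tested. The sources name no molecular identifiers, so reads are not independent molecules.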

Additional observations from a re-analysis of the deposited data

Results flagged for a closer look

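The 5 neighbouring regions below the 3′ end of Ldb3 were singled out because their accessibility differed between GMT days by the test of the difference itself (edgeR, adjusted p under 0.05). In order of position, the log2 fold changes of day 21 over day 2 were -1.94, -2.35, -2.21, -1.80 and -1.32. For days 14 and 21 over days 2 and 3 they were -1.83, -1.71, -1.80, -1.49 and -1.28. The region chr14:35380438-35382422 in the upper part of the span was called in the pooled comparison, with a log2 fold change of 0.70. That call was lost with library totals alone (edgeR adjusted p = 0.139), no filter (0.867) or only the compared groups (0.0746). It was also lost without the libraries that stood apart (edgeR adjusted p = 0.176) and without most single libraries. No group had enough libraries for a check of single outlying samples.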

How the results depend on the processing

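With RLE factors, library totals or fewer libraries, the sum of the window stayed above fibroblasts. It was not computed again under the other alternatives. With library totals alone in place of TMM, its log2 ratio was 2.00 at day 2 and 2.01 at day 21. Among GMT days the sign of the sum was not stable. Without the libraries that stood apart, it was -0.31 for day 21 over day 2 and -0.26 for day 7 over day 3, which library totals put at -0.17. Leaving out 1 library gave -0.32 to 0.30 for day 21 over day 2, -0.59 to 0.20 for day 3 over day 2, -0.25 to 0.37 for day 7 over day 3 and -0.22 to 0.10 for the pooled days. Regions called in day 21 over day 2 numbered 0 with no filter on low counts, where many more regions share the adjustment, and 2 to 5 with 1 library left out. Day 7 over day 3 gave 2 without the libraries that stood apart and 0 to 1 with 1 library left out. Against fibroblasts, 1 library left out gave 18 to 34 at day 7 and 15 to 28 at day 14. Shares over all regions were counted only in the main fit of 18 libraries, so the counts under alternatives have no share beside them. The sign at chr14:35355113-35355338 turned to -0.23 without the libraries that stood apart and ranged from -0.28 to 0.80 with 1 left out. That at chr14:35356527-35359462 turned to 0.090 with no filter and ranged from -0.33 to 0.20. The pooled share above the gene was 2.00 points with filtered regions alone (exact permutation p = 0.0498) and 1.56 to 2.54 with 1 library left out. Except for the effects of fewer samples or more regions tested, the cause was not tested. Pairing by replicate number was checked on log2 CPM after the mean of each group had been subtracted. These deviations correlated at -0.157 to 0.321 between same-numbered replicates of different groups. Of 18 libraries, 8 correlated best with their own number out of 3 numbers, so the numbers were not taken as pairing. With the replicate block, 5 regions were called in day 21 over day 2 and 8 in the pooled comparison, against 6 without it. The fibroblast libraries held 452 to 2041 counts in the window, which limits what can be said of its weak regions.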

Other observations

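Outside the rule for named regions, chr14:35404316-35406026, just upstream of the 5′ end of the Ldb3 span, was picked after its values were seen. It averaged 27.4 ± 12.8 CPM on day 2, 21.1 ± 10.7 on day 3, 20.4 ± 3.59 on day 7, 16.1 ± 1.54 on day 14 and 17.4 ± 3.81 on day 21, against 4.35 ± 2.52 CPM in fibroblasts (SD, n = 3 each). The log2 fold change of day 21 over day 2 was -0.68 (SE 0.34, edgeR adjusted p = 0.376), where the neighbouring region over the 5′ end had 0.74. Day 2 replicate 1 had 12.8 CPM and the other day 2 libraries 32.9 and 36.7 CPM. Without the libraries that stood apart, the log2 fold change was -0.99 in day 21 over day 2 (edgeR adjusted p = 0.00131) and -0.85 in the pooled comparison (adjusted p = 4.40e-05). The difference between these neighbours was not tested.

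A second region picked in the same way, chr14:35395357-35396757 in the upper part of the span, averaged 28.4, 24.2, 27.1, 23.3 and 30.7 CPM over the GMT days against 3.20 CPM in fibroblasts, 8.36 times the fibroblast mean. Its log2 fold change of day 21 over day 2 was 0.08 (SE 0.33, edgeR adjusted p = 0.948), and -0.24 without the libraries that stood apart (adjusted p = 0.693).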
